A study of Rattus norvegicus with 20 samples.

Results

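Cortical collecting ducts were compared between water-loaded and control rats after 2 days of water loading, in 8 of the 20 libraries of a study that also sampled days 1 and 4. The members were the 8 libraries whose titles name day 2, 4 per treatment, and the comparison ran across all genes of the deposited count table. All rats were male Sprague-Dawley rats, 5 weeks old, and all of them, controls included, carried a minipump that delivered DDAVP at 5 ng per hour. The 4 control rats received 25 mL of water per day in gelled food, and the 4 water-loaded rats received 50 mL per day. Each numbered library is taken here as a separate rat, which the labels do not say in words. DDAVP is a synthetic agonist of the vasopressin V2 receptor, so every rat received a V2 agonist and a rat without DDAVP was not part of the comparison. The ducts were dissected by hand from collagenase-digested left kidneys, and cDNA was amplified from the lysate by a protocol written for single cells. The design text gives DDAVP for 5 days, and the treatment text names 4 days for the dissection; the day used here is the one in the titles.

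Water reabsorption in the collecting duct is set by vasopressin. In principal cells the hormone binds the V2 receptor, raises cAMP and moves the water channel aquaporin-2 into the apical membrane, while aquaporin-3 and aquaporin-4 let water leave across the basolateral membrane. When water intake stays high under constant vasopressin, the kidney begins to excrete water again, a state called vasopressin escape, for which loss of aquaporin-2 is best known. Intercalated cells, the other cells of the duct, secrete acid or base. Adult collecting duct cells seldom divide, and a dividing cell passes through a replication phase (G1/S), with the MCM helicase and nucleotide synthesis genes, and then mitosis, with spindle, kinetochore and kinesin genes.

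Reads on genes came to 43.0 to 74.9 M in the 8 libraries, and 13322 to 15266 genes were detected per library. Values below are CPM, counts scaled to the reads on genes of each library after TMM scaling of the library sizes. A floor of 3 counts corresponded to 0.0414 to 0.0743 CPM, which covers counting error only, since amplified reads are not independent molecules. Libraries numbered 3 and 4 were alike in both treatments, and libraries numbered 1 and 2 formed a looser set. Across genes, log2 CPM correlated at 0.824 to 0.863 within libraries 1-2, at 0.871 to 0.920 within 3-4 and at 0.811 to 0.878 between these sets. Water-loaded 1 correlated at 0.863 with water-loaded 2 but at 0.873 and 0.878 with water-loaded 3 and 4. Of 14472 genes tested, 1069 were higher in all 4 libraries numbered 3-4 than in all 4 numbered 1-2, and 869 were lower. The labels do not say what the sets share, and each set holds 2 rats of each treatment, so list medians and the main genes are given within both. Day 2 control 1 held the most proximal tubule transcripts: the 22 markers with a read summed to 3098 CPM there, against 206 to 278 CPM in the other controls and 129 to 246 CPM in water-loaded rats. The collecting duct markers Aqp2 (principal cells) and Slc26a4 (intercalated cells) were at 9242 CPM and 2319 CPM or more in all 8 libraries.

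No single gene passed the test at day 2. Counts were tested with edgeR's quasi-likelihood test, with Benjamini-Hochberg adjustment over 14472 genes and a threshold of 0.05, and 0 genes (0%) were called; the smallest adjusted p was 0.195. At an unadjusted p under 0.05 there were 757 genes (5.23%), 400 higher (2.76%) and 357 lower (2.47%) under water load. The same counts gave 19 called genes with limma-voom, 15 of them higher, and 77 with DESeq2, 42 of them higher. The biological coefficient of variation, the spread between rats beyond counting error, was 1.06 over the 20 libraries. In counts simulated with the gene-wise spread of the 20-library fit over 14470 genes, edgeR called 27.5% of the genes changed 4-fold (2 on the log2 scale). It called 1.25% of those changed by 1 on the log2 scale and 85.0% of those changed by 4. Changes were placed only in genes with a control mean of at least 10 CPM. These shares therefore do not cover genes near the floor. Every value below is therefore a description of the 8 libraries unless a call is named. A further description is whether the groups overlap: of 17878 genes with a read at day 2, all 4 water-loaded rats lay above all 4 controls in 351 (1.96%) and below them in 281 (1.57%). Among the genes tested these were 340 (2.35%) and 272 (1.88%). For a single gene the exact two-sided permutation test over the 8 rats cannot go below p = 0.0286 (70 arrangements), and each gene whose groups did not overlap had this p. The arrangements let rats change places between libraries 1-2 and 3-4, so this p does not account for the sets.

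The water channel genes Aqp2 and Aqp3 of principal cells were lower in every water-loaded rat than in any control. Aqp3 (ENSRNOG00000009797) stood at 1781, 3746, 3415 and 2550 CPM in controls 1 to 4 and at 460, 673, 837 and 1382 CPM in water-loaded rats 1 to 4. Its mean was 3.43-fold lower (838 ± 394 against 2873 ± 886 CPM, SD, n = 4 each), with a log2 difference of -1.78 (SE 0.34, edgeR adjusted p = 0.195). The highest water-loaded rat lay below the lowest control, and the difference in mean log2 CPM was -2.21 in libraries 1-2 and -1.46 in 3-4. Aqp2 (ENSRNOG00000054378), the apical channel, stood at 19130, 21430, 26940 and 29970 CPM in controls and at 9242, 13910, 9255 and 18070 CPM in water-loaded rats. It was 1.93-fold lower, with a log2 difference of -0.95 (SE 0.29, edgeR adjusted p = 0.855), and its groups did not overlap either. Within libraries 1-2 and 3-4 the differences were -0.84 and -1.14.

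**Figure D1:**
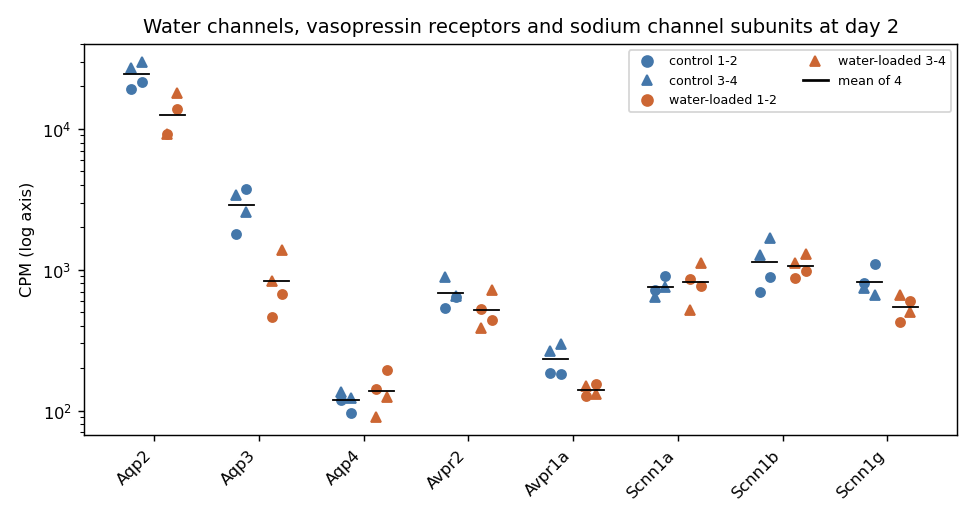
CPM on a log axis of 8 genes in each day 2 library, with controls in blue, water-loaded rats in orange, circles for libraries 1-2, triangles for 3-4 and a bar for the mean of 4. Aqp2, Aqp3 and Avpr1a show no overlap between treatments, and the other genes do overlap.

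The third separated gene was Avpr1a, the V1a vasopressin receptor. It stood at 184, 181, 266 and 295 CPM in controls and at 126, 154, 150 and 131 CPM under water load (log2 difference -0.72, SE 0.27, edgeR adjusted p = 0.857; -0.39 in libraries 1-2 and -1.001 in 3-4). Avpr2, the receptor that DDAVP acts on, stood at 536, 645, 892 and 652 CPM against 525, 438, 384 and 716 CPM, and its groups overlapped. Aqp4 overlapped, at 118 ± 16.6 CPM in controls and 137 ± 43.3 CPM under water load, and its difference was 0.63 in libraries 1-2 and -0.29 in 3-4. Of the 8 members of the water channel and vasopressin receptor list with a read, 7 were lower and 1 higher, 6 were lower in both sets, and 3 (37.5%) had groups that did not overlap, lower, against 1.57% of all genes. Their median difference in mean log2 CPM was -0.84, against 0.063 over all genes with a read, and -0.61 within libraries 1-2 and -0.63 within 3-4. The list also holds Aqp5, Aqp1, which is among the proximal tubule markers, and Aqp6, which is among the type A intercalated cell markers. Its counts and median are therefore not those of principal cell genes alone. In bulk ducts, fewer cells of a type and less RNA per cell cannot be told apart.

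The same cells carry the epithelial sodium channel, whose subunits Scnn1a and Scnn1b did not show this pattern. The subunit Scnn1g was lower in both sets (-0.90 in libraries 1-2 and -0.27 in 3-4), but its groups overlapped. Scnn1a stood at 751 ± 111 CPM in controls and 816 ± 243 CPM under water load, and Scnn1b at 1133 ± 442 and 1064 ± 182 CPM. Scnn1g stood at 806, 1096, 737 and 657 CPM against 424, 600, 662 and 504 CPM, a log2 difference of -0.59 (SE 0.22, edgeR adjusted p = 0.857), with 1 water-loaded rat above the lowest control. Npnt, the integrin ligand nephronectin, was lower without overlap, at 31.8 to 58.5 CPM in controls and 18.0 to 26.1 CPM in water-loaded rats. Fxyd4, a regulator of the sodium pump, stood at 372 to 793 CPM and 140 to 542 CPM. Of 13 principal cell markers 11 were lower, 8 of them in both sets, with a median of -0.42 (-0.29 in libraries 1-2 and -0.40 in 3-4). The list holds Aqp2, Aqp3, Aqp4 and Avpr2, so it is not separate from the water channel list.

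Downstream of the receptor, Rapgef3 (Epac1), a cAMP-activated exchange factor, stood at 319, 391, 585 and 392 CPM in controls and at 229, 158, 283 and 271 CPM under water load (log2 difference -0.84, SE 0.29, edgeR adjusted p = 0.857; -0.89 in libraries 1-2 and -0.79 in 3-4). Adcy6, the adenylyl cyclase best known for the vasopressin response, overlapped at 405 ± 102 and 265 ± 84.7 CPM. Pde4c, a phosphodiesterase that degrades cAMP, was higher without overlap, at 12.9 to 17.1 CPM in controls and 20.1 to 52.7 CPM under water load. Pde7a had no read in the 4 controls and 0.446 to 13.1 CPM in water-loaded rats. Of 35 genes of cAMP and protein kinase A signalling, 14 were higher and 21 lower; 2 (5.71%) lay higher and 1 (2.86%) lower without overlap, against 1.96% and 1.57% of all genes, and the median was -0.29 (-0.01 in libraries 1-2 and -0.31 in 3-4).

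Genes of cell division were higher in water-loaded rats than in controls. Of 91 mitosis and spindle genes with a read, 89 were higher in water-loaded rats and 2 lower (Cks1b, and Zwilch, whose fitted difference was positive), and 78 were higher in both sets, against 25.8% of all genes. In 33 of them (36.3%) the groups did not overlap, all 33 higher, against 1.96% of all genes. The median difference was 2.90 on the log2 CPM scale, and it was 2.75 within libraries 1-2 and 3.21 within 3-4. None was called by edgeR. Of the 90 members tested, 24 had an unadjusted p under 0.05, all of them higher. Of all genes tested, 2.76% were higher at this p. Without day 2 control 1 the number without overlap was 41 (45.1%, against 2.91% of all genes).

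Mki67, the antigen used to stain dividing cells, stood at 9.35, 0.199, 6.46 and 0.0324 CPM in controls and at 67.9, 50.1, 27.8 and 12.2 CPM in water-loaded rats. The lowest water-loaded rat thus lay above the highest control, but controls 2 and 4 lay far below controls 1 and 3, and the log2 difference of 3.30 had an SE of 1.54 (edgeR adjusted p = 0.938). Top2a, the DNA topoisomerase of dividing cells, stood at 1.45, 6.65, 9.20 and 0.405 CPM against 95.8, 26.4, 19.9 and 11.9 CPM. Plk1, a mitotic kinase, stood at 1.32, 0.128, 1.18 and 4.75 CPM against 12.1, 25.1, 14.6 and 16.6 CPM. Ube2c, which works with the anaphase-promoting complex, was even among water-loaded rats, at 34.4 to 41.3 CPM, and lay between 0.535 and 14.0 CPM in controls. Kif22, a chromosome-carrying kinesin, stood at 3.49, 0.584, 0.151 and 2.63 CPM against 55.7, 15.9, 28.9 and 12.5 CPM. Foxm1, a transcription factor of the mitotic genes, stood at 1.24 to 9.98 CPM and 14.8 to 72.6 CPM. These members had control levels above the floor in most rats.

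Other members were close to absent in controls. Melk, a kinase of dividing cells, stood at 0, 0.0997, 0.0604 and 0.0324 CPM in controls and at 12.3, 9.33, 14.9 and 10.7 CPM under water load (edgeR adjusted p = 0.72). Arhgap11a, a GTPase-activating protein of dividing cells, stood at 0 to 0.0997 CPM against 1.49 to 30.1 CPM. Kif4a, a chromosome-bound kinesin, reached 11.4, 3.30 and 4.31 CPM in water-loaded rats 1, 3 and 4 but only 0.0347 CPM in rat 2, so its groups overlapped. Some cell cycle genes of the list overlapped: Bub1, a spindle checkpoint kinase, stood at 25.0, 36.1, 1.95 and 1.61 CPM against 16.9, 23.3, 12.7 and 4.19 CPM, and Ccnb1, cyclin B1, at 11.6, 20.98, 1.03 and 0.0324 CPM against 24.9, 13.9, 11.6 and 2.87 CPM. For both, controls 1 and 2 were high and controls 3 and 4 low. The difference for Bub1 was -0.60 in libraries 1-2 and 2.02 in 3-4.

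Replication genes gave a smaller difference. Of 70 genes of G1/S and DNA replication, 60 were higher and 10 lower, 56 were higher in both sets (25.8% of all genes were), and in 18 (25.7%) the groups did not overlap, all higher, against 1.96% of all genes. The median difference was 1.37, with 1.82 within libraries 1-2 and 1.02 within 3-4, and it was 1.66 without day 2 control 1. Uhrf1, which keeps DNA methylation through replication, had 0.0312, 0, 0.0151 and 0 CPM in controls, at or under the floor, and 2.75, 3.07, 7.06 and 10.1 CPM under water load. Its edgeR adjusted p was 0.214, and it was called by limma-voom (0.00322) and DESeq2 (2.79e-08). E2f1, a transcription factor that switches on replication genes, stood at 0.218, 0.0427, 0.0906 and 0.600 CPM against 10.8, 10.6, 9.10 and 16.4 CPM (edgeR adjusted p = 0.547).

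Mcm10, which loads at replication origins, had at most 0.0156 CPM in controls and 2.66, 9.11, 1.37 and 0.347 CPM under water load. Mcm6, a subunit of the replicative helicase, stood at 10.98, 17.5, 21.5 and 12.7 CPM in controls and at 77.4, 80.2, 27.8 and 77.6 CPM in water-loaded rats, where rat 3 was low. Mcm5, another subunit, stood at 0.218, 0.157, 9.77 and 6.79 CPM against 40.2, 37.7, 15.5 and 41.3 CPM. Tk1, a thymidine kinase, was 3.99-fold higher (60.1 ± 26.0 against 15.1 ± 7.25 CPM), and its groups did not overlap. Ccnd1, cyclin D1, which carries growth signals into the cycle, stood at 56.2, 30.5, 39.6 and 50.4 CPM against 127, 83.1, 53.3 and 122 CPM, with 1 water-loaded rat below the highest control. Pcna, the replication clamp, overlapped at 205, 148, 583 and 318 CPM against 286, 425, 518 and 1064 CPM. In the controls of libraries 3-4 Pcna and Mcm5 were higher than in those of 1-2.

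**Figure D2:**
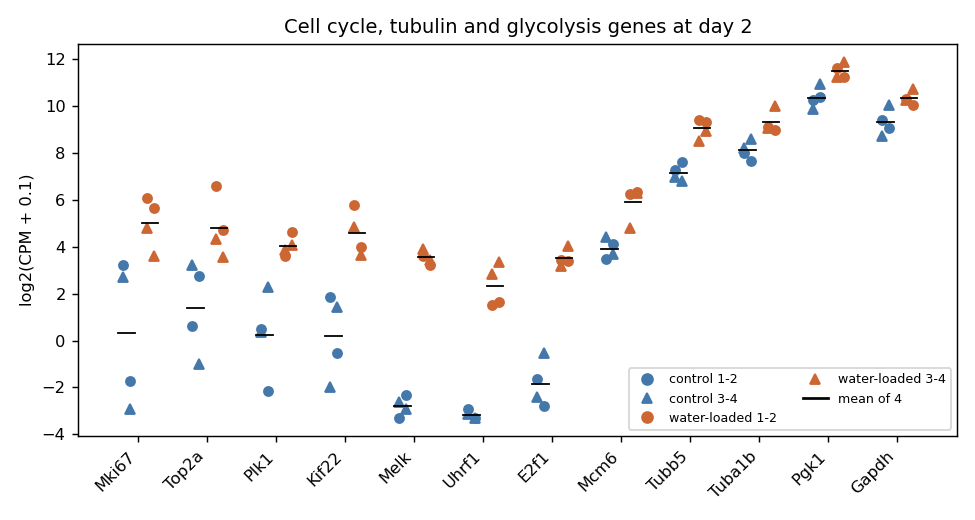
log2(CPM + 0.1) of 12 genes in each day 2 library, with controls in blue, water-loaded rats in orange, circles for libraries 1-2, triangles for 3-4 and a bar for the mean of 4. In all 12 genes the water-loaded rats lie above the controls; Mki67 and Kif22 vary among controls, and Melk and Uhrf1 are near the floor in all 4.

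Promoters of these genes are shown because members that move together in division are known to share short elements, the CCAAT box and the CHR element for mitotic genes and E2F sites for replication genes. The sequences are the 100 bases before the RefSeq start, build GRCr8, in the direction of the gene, with the matched letters in capitals. The first 4 belong to mitotic genes whose groups did not overlap, and they were picked because they hold 2 elements. These are CCAAT, which reads as ATTGG on the other strand, and TTTGAA, which reads there as TTCAAA. Of 27 mitotic genes without overlap and with a promoter, only 6 held both within these 100 bases.
Mki67 (chr1:199952594-199952693, minus strand): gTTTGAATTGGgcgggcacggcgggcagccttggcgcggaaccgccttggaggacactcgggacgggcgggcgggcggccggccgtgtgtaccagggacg
Top2a (chr10:84473094-84473193, minus strand): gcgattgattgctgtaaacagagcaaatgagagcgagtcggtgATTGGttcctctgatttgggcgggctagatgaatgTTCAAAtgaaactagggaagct
Kif22 (chr1:191080879-191080978, minus strand): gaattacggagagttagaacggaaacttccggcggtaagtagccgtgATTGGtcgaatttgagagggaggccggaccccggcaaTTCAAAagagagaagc
Aspm (chr13:53625484-53625583, plus strand): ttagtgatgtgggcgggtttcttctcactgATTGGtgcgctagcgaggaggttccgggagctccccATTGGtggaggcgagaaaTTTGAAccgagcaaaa
In Mki67 the matches share a base. The next 2 belong to helicase subunits, with E2F letters in capitals.
Mcm6 (chr13:42404353-42404452, minus strand): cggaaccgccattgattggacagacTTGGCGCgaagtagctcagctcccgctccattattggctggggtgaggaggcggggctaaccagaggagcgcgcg
Mcm5 (chr19:13488713-13488812, plus strand): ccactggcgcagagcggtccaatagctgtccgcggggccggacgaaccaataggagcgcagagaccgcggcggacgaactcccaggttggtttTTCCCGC

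Aspm, a spindle pole protein, stood at 1.28, 0.185, 0.619 and 0 CPM in controls and at 24.6, 5.60, 5.90 and 3.91 CPM under water load. Over the 250 bases before the start, searched on both strands, TTTGAA was found in 45.5% of the 77 mitosis and spindle promoters that the RefSeq table holds, against 16.0% of all 27457 promoters and 10.6% of those of genes with a read at day 2. CCAAT was found in 61.0%, against 34.3% and 34.9%, and both together in 36.4%, against 5.76% and 3.92%. E2F letters were TTGGCGC and also TTCCCGC and also TTGGCGG, and those that begin with the bases of a reversed CCAAT box can overlap it. They were found in 43.9% of 57 G1/S promoters, against 7.11% of all and 12.2% of those of genes with a read. These are shares of letters with no test, and the lists were built from known cell cycle genes.

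**Figure D3:**
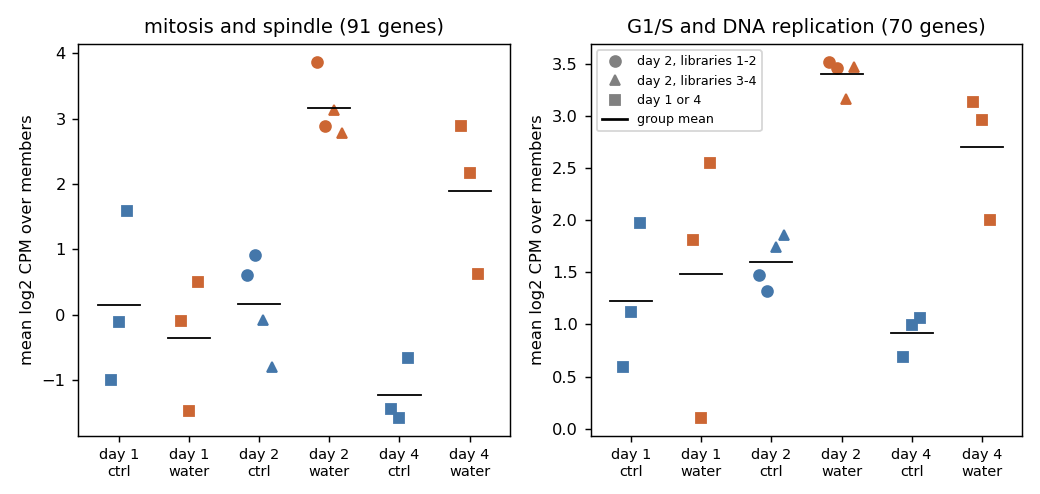
Mean log2 CPM over the 91 mitosis and spindle genes (left) and the 70 G1/S genes (right) in each of 20 libraries by day and treatment, with controls in blue, water-loaded rats in orange and a bar for the group mean. At day 2 the 4 water-loaded libraries lie above the 4 controls in both lists; at day 1 the treatments overlap.

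Averaged over the 91 mitosis genes, log2 CPM was 0.60, 0.92, -0.09 and -0.81 in controls 1 to 4 and 3.87, 2.89, 3.12 and 2.79 in water-loaded rats 1 to 4. The lowest value under water load exceeded the highest control value, and libraries 1-2 lay above 3-4 among controls. Averaged over the 70 G1/S genes, it was 1.48, 1.32, 1.74 and 1.85 in controls and 3.52, 3.46, 3.17 and 3.47 in water-loaded rats. Of the 91 mitosis genes, 73 to 86 were detected per control and 90 or 91 per water-loaded rat. Summed markers of immune, endothelial, and fibroblast and pericyte cells overlapped between treatments, although most single members of these 3 lists were higher under water load. The 19 immune markers with a read summed to 164 to 1033 CPM in controls and 171 to 768 CPM under water load, with Ptprc, the common leukocyte antigen, at 0, 0, 0.408 and 0 CPM against 1.99, 0, 4.63 and 0.322 CPM; 14 of the 19 were higher, with a median of 0.11 (0.63 in libraries 1-2 and 0.07 in 3-4). The 14 endothelial markers summed to 138 to 1130 CPM and 199 to 943 CPM, with 11 higher and a median of 0.61 (1.35 in libraries 1-2 and -0.21 in 3-4), and both lists were highest in libraries 3 and 4. The 14 fibroblast and pericyte markers summed to 110 to 174 CPM and 86.2 to 251 CPM, with 10 higher and a median of 0.41 (0.69 and 0.52), and in none of the 3 lists did a member lie higher or lower without overlap. The part of these cells in the cell cycle values was not tested.

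**Figure D4:**
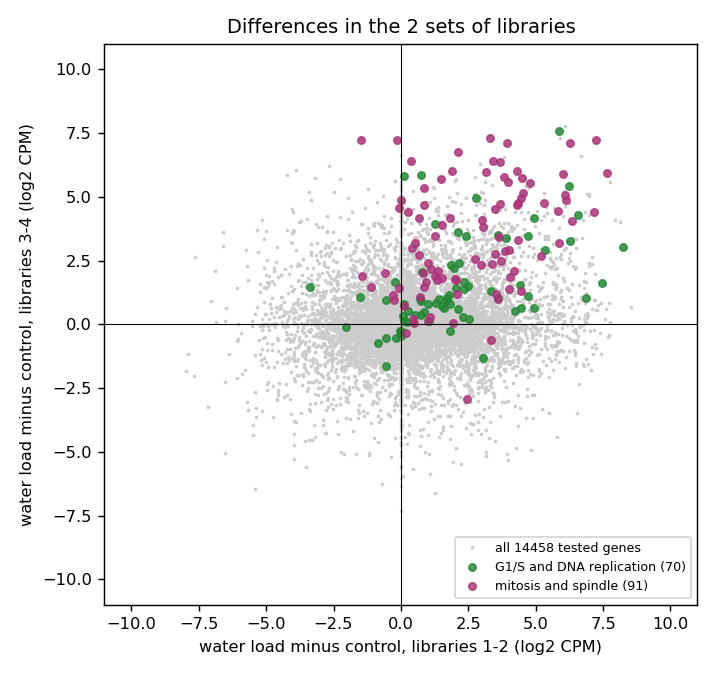
Water load minus control in mean log2 CPM within libraries 3-4 (vertical) against libraries 1-2 (horizontal), for 14458 tested genes with a read at day 2 (grey), 91 mitosis genes (purple) and 70 G1/S genes (green). Most members of both lists lie in the upper right part, where both sets are higher under water load (78 of 91 and 56 of 70).

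Tubulins, the subunits of microtubules and so of the spindle, were higher as a family. Of 15 with a read, 13 were higher, 11 in both sets, 5 (33.3%) without overlap, against 1.96% of all genes, and the median was 1.13 (1.18 in libraries 1-2 and 0.94 in 3-4). Tubb5, a beta tubulin, stood at 158, 197, 126 and 112 CPM in controls and at 685, 641, 371 and 498 CPM in water-loaded rats, 3.71-fold higher (log2 difference 1.89, SE 0.40, edgeR adjusted p = 0.242). It was 1.91 higher in libraries 1-2 and 1.86 in 3-4, and with the 8 day 2 libraries alone and a term for the set it was called (adjusted p = 0.0293). Tubb4b, another beta tubulin, stood at 262, 262, 229 and 273 CPM against 618, 530, 333 and 662 CPM. Tuba1b and Tuba4a, alpha tubulins, were 2.32-fold and 2.02-fold higher without overlap. The 15 tubulins summed to 911 to 1155 CPM in controls and 1694 to 2895 CPM under water load. Tubulin, Gapdh and Pgk1 genes have near-identical copies elsewhere in the genome, and reads that map to several places were not counted, so their levels are uncertain.

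Enzymes of glycolysis were also higher. Pgk1 (phosphoglycerate kinase) stood at 1239, 1334, 937 and 1959 CPM against 3185, 2406, 2444 and 3823 CPM, 2.17-fold higher (log2 difference 1.12, SE 0.26, edgeR adjusted p = 0.406; 1.11 in libraries 1-2 and 1.17 in 3-4). Gapdh, the enzyme before it in the pathway, stood at 678, 541, 425 and 1063 CPM against 1270, 1075, 1243 and 1721 CPM. Pfkm and Hk1, which phosphorylate sugars at the start of the pathway, were 1.84-fold and 1.67-fold higher without overlap. Of 25 genes 19 were higher, 4 (16.0%) without overlap, against 1.96% of all genes, with a median of 0.54 (0.56 in libraries 1-2 and 0.36 in 3-4). The glucose transporter Slc2a1 went the other way, at 252, 279, 325 and 152 CPM against 77.9, 171, 81.9 and 93.3 CPM (log2 difference -1.25, SE 0.35, edgeR adjusted p = 0.758), with overlap in 1 rat of each group. Pfkfb3, which makes an activator of glycolysis, stood at 17.8, 29.8, 19.98 and 6.79 CPM against 2.00, 2.74, 6.16 and 7.01 CPM. Of 34 genes of cholesterol and fatty acid synthesis 28 were higher, 21 in both sets, but 2 (5.88%) without overlap, against 1.96% of all genes, with a median of 0.77 (0.88 in libraries 1-2 and 0.55 in 3-4). Msmo1, a sterol oxidase, was 2.35-fold higher, at 75.3, 17.6, 25.9 and 70.7 CPM against 139, 105, 75.5 and 126 CPM. Control 1 and water-loaded rat 3 were nearly equal for it.

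Acta1, Ankle1 and Hadha were the genes outside the lists with higher levels and the smallest p. They were ranked among genes with a mean of at least 10 CPM, groups without overlap and the same sign in both sets. Acta1, skeletal muscle actin, had no read in controls and 0.0923, 50.1, 2.03 and 33.2 CPM in water-loaded rats, a wide spread within the group. Ankle1, an endonuclease, stood at 0.0712 to 0.468 CPM in controls and 36.2, 48.1, 15.4 and 16.0 CPM under water load (edgeR adjusted p = 0.644). Hadha, an enzyme of mitochondrial fatty acid oxidation, was 2.08-fold higher, at 193, 86.6, 184 and 237 CPM against 405, 386, 363 and 304 CPM. Of 25 tubule injury and keratin genes 18 were higher, 3 (12%) higher and 1 (4%) lower without overlap, against 1.96% and 1.57% of all genes, with a median of 0.43 (0.31 in libraries 1-2 and 0.32 in 3-4). Krt7, a keratin of simple epithelia, stood at 968 to 1085 CPM and 1240 to 2515 CPM, and Krt8 at 383 to 650 CPM and 699 to 1252 CPM, both without overlap, while the keratins Krt18 and Krt19 overlapped.

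Among the genes with lower levels, Snn, Hmx2, Aqp3, Btc and Vasn had the smallest p. Snn (stannin, a small membrane protein) stood at 1450, 1767, 1512 and 1597 CPM in controls and at 637, 508, 537 and 717 CPM under water load, 2.64-fold lower (log2 difference -1.40, SE 0.25, edgeR adjusted p = 0.195; -1.49 in libraries 1-2 and -1.32 in 3-4). The gap between the groups was larger than the range within either. Hmx2, a homeobox transcription factor on the type B intercalated cell list, stood at 1783, 1754, 1596 and 1899 CPM against 773, 1138, 795 and 874 CPM (log2 difference -0.97, SE 0.19, edgeR adjusted p = 0.195; -0.92 in libraries 1-2 and -1.06 in 3-4). Lpin2, a phosphatidate phosphatase, stood at 2861, 3963, 1032 and 1401 CPM against 594, 342, 335 and 243 CPM, 6.12-fold lower, and libraries 1-2 were the higher controls. Vasn (vasorin, a membrane protein that binds TGF-beta) was 4.57-fold lower, Mgll (monoacylglycerol lipase) 5.60-fold, Eva1b 3.95-fold and Tmem38b, an intracellular cation channel, 2.88-fold, all without overlap. Snn, Hmx2 and Aqp3 were called by limma-voom (adjusted p = 0.00732, 0.0271 and 0.0271), and these and the other 7 genes among the 10 lowest by p were called by DESeq2.

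Single genes of growth factor signalling had lower levels. Btc (betacellulin), an EGF receptor ligand, stood at 140, 203, 471 and 138 CPM against 12.5, 36.7, 63.4 and 32.5 CPM, 6.56-fold lower (log2 difference -2.71, SE 0.53, edgeR adjusted p = 0.195; -2.98 in libraries 1-2 and -2.49 in 3-4). Phlda1, an early growth factor target, stood at 40.5, 94.6, 37.9 and 22.6 CPM against 7.54, 14.8, 13.8 and 6.19 CPM, and Spry1, a feedback inhibitor of the MAPK pathway, at 84.7 to 222 CPM and 23.4 to 104 CPM. Of 32 genes of the list of EGF ligands, ErbB receptors and MAPK feedback 19 were lower and 13 higher, 2 without overlap (6.25%, against 1.57% of all genes), with a median of -0.19 (-0.22 in libraries 1-2 and -0.16 in 3-4). Of 25 immediate-early genes 20 were lower, 14 in both sets, with a median of -0.80 (-0.57 in libraries 1-2 and -0.63 in 3-4), and 3 (12%, against 1.57% of all genes) lay lower without overlap: Jun, Egr1 and Zfp36. Jun, a subunit of AP-1, stood at 198, 412, 340 and 171 CPM against 109, 74.9, 102 and 109 CPM. Zfp36, which speeds decay of early mRNAs, stood at 169, 234, 406 and 171 CPM against 40.7, 84.9, 107 and 65.0 CPM. Fos, the partner of Jun in AP-1, overlapped (1079, 1175, 1569 and 799 CPM against 545, 1070, 968 and 897 CPM).

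Of 37 Wnt pathway genes 21 were lower and 16 higher, with a median of -0.18 (0.01 in libraries 1-2 and -0.23 in 3-4), and 3 (8.11%, against 1.57% of all genes) lay lower without overlap. Sfrp2, a secreted Wnt-binding protein, stood at 98.9, 96.3, 64.0 and 37.8 CPM against 3.02, 12.5, 1.62 and 3.67 CPM, 14.3-fold lower (log2 difference -3.84, SE 1.00, edgeR adjusted p = 0.644; -3.98 in libraries 1-2 and -4.31 in 3-4). Fzd5, a Wnt receptor, stood at 5.58 to 13.9 CPM and 0.692 to 3.27 CPM, and Porcn, which acylates Wnt proteins, was the third. Of 29 Notch genes 17 were higher and 12 lower, with a median of 0.09 (0.12 in libraries 1-2 and -0.05 in 3-4), and 2 (6.9%, against 1.57%) lay lower without overlap. Hes1, a target of Notch, was 2.45-fold lower (26.3 to 43.1 against 7.58 to 19.4 CPM) and Jag1, a ligand, lay at 32.7 to 61.1 CPM and 15.8 to 22.4 CPM. Cd24, a surface glycoprotein of immature epithelia, stood at 3707, 4008, 6145 and 3246 CPM against 1742, 880, 1938 and 2802 CPM (edgeR adjusted p = 0.758). Of 23 CDK inhibitors and p53 targets 14 were lower and 9 higher, with a median of -0.13 (-0.39 in libraries 1-2 and 0.05 in 3-4), and 1 (4.35%) lay lower without overlap. This was Rprm, a p53 target that holds cells before mitosis, at 80.9, 91.1, 36.0 and 44.8 CPM against 21.6, 24.01, 24.6 and 30.7 CPM. Cdkn1b (p27), an inhibitor of cyclin-dependent kinases, stood at 66.0, 23.9, 115 and 33.8 CPM against 23.1, 26.3, 21.3 and 20.8 CPM and overlapped.

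Transcription factors of the collecting duct lay lower more often than higher: 17 of 26 were lower, 14 in both sets, 5 (19.2%) without overlap, with a median of -0.48 (-0.57 in libraries 1-2 and -0.27 in 3-4). Over all genes 22.0% were lower in both sets and 1.57% lower without overlap. Pax8, a factor of the kidney epithelium, stood at 313, 427, 470 and 392 CPM against 146, 214, 164 and 285 CPM. Hoxb7, a marker of the ureteric bud from which the duct grows, stood at 229, 256, 180 and 183 CPM against 139, 98.2, 88.7 and 122.8 CPM, and Lmo4, a LIM-only cofactor, at 89.3 to 246 CPM and 35.3 to 66.5 CPM. The others were Hmx2 and Nr3c2, the mineralocorticoid receptor. Markers of acid-secreting type A intercalated cells differed in the opposite direction from principal cell markers: 9 of 12 were higher, 8 in both sets, with a median of 0.53 (0.44 in libraries 1-2 and 0.64 in 3-4), and Atp6v1b1 alone (8.33%, against 1.96%) had groups that did not overlap. The 12 type A markers summed to 7426 to 10580 CPM in controls and 11230 to 14170 CPM under water load, without overlap. Atp6v1b1, a proton pump subunit, stood at 1315, 1523, 1040 and 1686 CPM against 2388, 1953, 2347 and 2048 CPM, and Rhbg, an ammonia transporter, at 634, 777, 1184 and 1820 CPM against 1312, 1608, 1905 and 3577 CPM. Of 7 type B markers 6 were lower, 1 (14.3%) without overlap (Hmx2), with a median of -0.21 (-0.46 in libraries 1-2 and -0.004 in 3-4). Slc26a4 (pendrin, a chloride-bicarbonate exchanger) overlapped, at 3306 to 4554 CPM and 2319 to 4809 CPM.

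**Figure D5:**
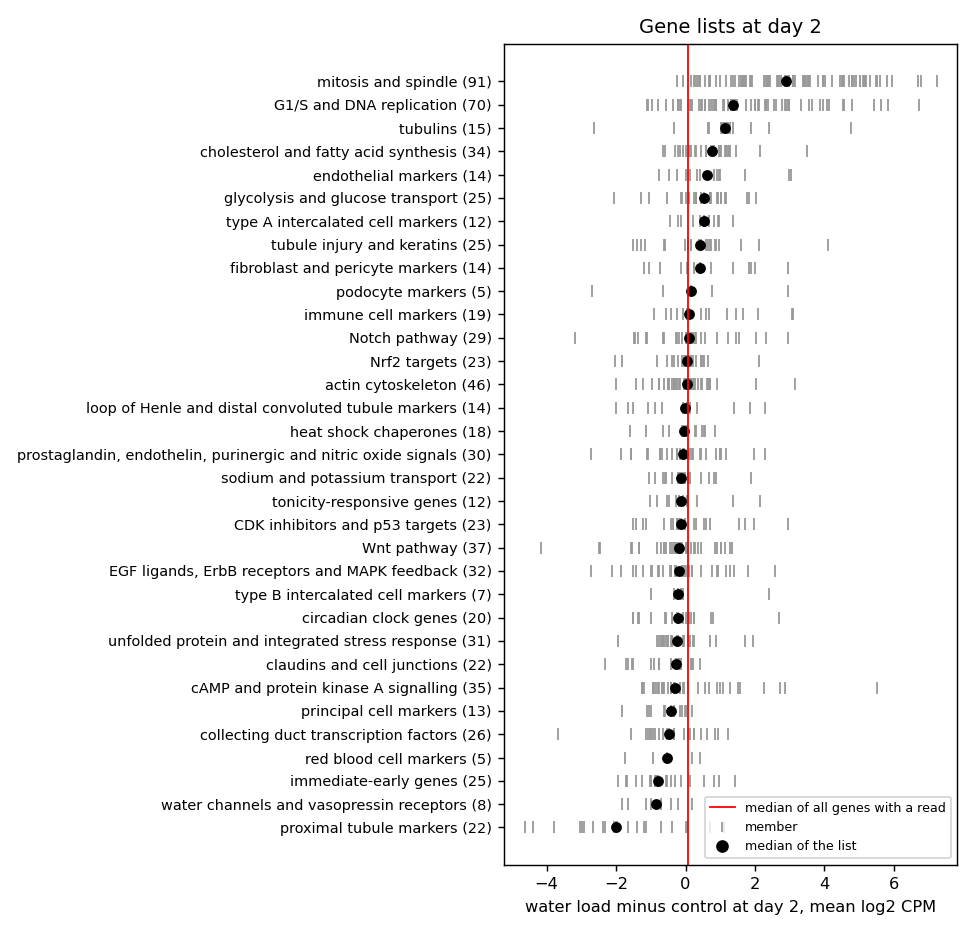
Difference between water-loaded and control rats in mean log2 CPM at day 2 for the members (grey ticks) of 33 gene lists, with the list median as a black dot and the number of members with a read in brackets; the red line is the median of all genes with a read (0.063). Among the 33 lists, mitosis, G1/S and tubulin genes lie farthest above, at medians of 2.90, 1.37 and 1.13, and proximal tubule and water channel genes farthest below, at -1.99 and -0.84. The urothelial and papillary epithelium list, with only 2 members with a read and a median of 1.745, is left out.

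The proximal tubule list had the lowest median, -1.99 (-2.39 in libraries 1-2 and -1.03 in 3-4). Of its 22 markers 18 were lower, and 16 were lower in both sets (22.0% of all genes were). Pck1 alone (4.55%, against 1.57% of all genes) lay lower without overlap. Control 1 carried most of the list's reads. In libraries 3-4 the markers summed to 278 and 239 CPM in controls against 146 and 129 CPM under water load. Slc34a1, the phosphate transporter of that segment, stood at 658 CPM in control 1 and at 2.19, 17.3 and 8.19 CPM in the other controls. Markers of the loop of Henle and distal convoluted tubule summed to 4797 to 10450 CPM and 5825 to 14750 CPM; Calb1, a calcium-binding protein, held 5618 CPM of the sum in water-loaded rat 4 against 105 to 914 CPM in the other 7 libraries. Of 14 markers with a read 7 were higher and 7 lower, with a median of -0.02 (-0.19 in libraries 1-2 and 0.02 in 3-4), and 3 (21.4%, against 1.57% of all genes) lay lower without overlap, Cldn16 and Cldn19 among them. Cldn16 and Cldn19, which form the cation pore of the thick limb, stood at 90.6 to 207 against 27.2 to 66.2 CPM and at 116 to 194 against 25.9 to 75.4 CPM, whereas Umod and Slc12a1, the defining markers of the thick limb, overlapped. In the unfolded protein response (20 of 31 lower, median -0.26) 1 member (3.23%) lay lower without overlap. In claudins and cell junctions (18 of 22 lower, median -0.28) 2 members (9.09%) did, Cldn16 and Cldn19 again, against 1.57% of all genes. These lists and actin cytoskeleton, heat shock chaperones, Nrf2 targets, tonicity-responsive genes and clock genes showed medians between -0.28 and 0.05 and at most 2 members without overlap.

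Whether the effect of water load at day 2 differed from that at the other days was tested as the difference of the effects. It differed in 0 of 14472 genes (0%) from day 1 (smallest edgeR adjusted p = 0.24) and in 0 (0%) from day 4 (smallest 1). At an unadjusted p under 0.05 there were 1579 genes (10.9%) against day 1 and 630 (4.35%) against day 4. With limma-voom 5 genes differed from day 1 and 0 from day 4, and with DESeq2 518 and 154. The mitosis list's median fitted log2 difference was 1.82 at day 2, -0.35 at day 1 and 2.71 at day 4, and that of the G1/S list 0.96, 0.06 and 0.69. Tubb5 differed by 1.89 at day 2, -0.35 at day 1 and 0.67 at day 4 (day 2 minus day 1 2.24, edgeR adjusted p = 0.24). Aqp3 differed by -1.78, -1.03 and -1.98 and Aqp2 by -0.95, -0.72 and -1.54 at days 2, 1 and 4, with the difference between days at an edgeR adjusted p of 0.648 or above. Slc2a1 differed by -1.25, 0.65 and 0.09 at days 2, 1 and 4. The days have separate control rats. At day 1, control 1 and water-loaded rat 2 had TMM factors of 0.645 and 0.686, against 0.904 or more in every other library. They had 12665 and 12788 genes detected. Both enter the day 1 effects and the shared fit, so the day 1 values carry this limit.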

How the data were processed

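Whole-number read counts per gene were deposited by the authors for 32545 Ensembl genes; FPKM values of the same libraries were deposited as well and used only in alternatives. Per the submitters' processing notes, the authors used Trimmomatic 0.32, STAR 2.4.0.1, SAMtools and HTSeq with rn6; for the annotation and strand setting no source used here says more. The 5 summary rows, with 31.45% to 35.61% of counts per library, were left out. All 20 libraries entered 1 edgeR 4.0.16 quasi-likelihood fit (R 4.3.3, robust, TMM, filterByExpr on group, a mean per group), tested on simulated data. DESeq2 1.42.0 and limma 3.58.1 were alternatives. log2 CPM used a prior count of 2, and a symbol on several rows took the row with most day 2 reads. The labels do not say in words that rats are separate samples beyond their numbered titles, so p-values measure the spread between these libraries.

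The members, the 34 gene lists (902 entries, 33 unmatched) and the alternatives were chosen with earlier results of these data known, so no list is independent support. Named by rule were 8 fixed genes, the 10 genes per direction with the smallest p, at least 10 CPM and groups that did not overlap and the same sign in both sets, and up to 3 members per list with the smallest p. The rule named 108 genes, of which 36, all list members, are covered by their list's counts and not described. Cell cycle, tubulin, signalling and marker genes beyond these were chosen after their values were seen. Same-numbered control and water-loaded libraries deviated together, with correlations of 0.148, 0.147, 0.154 and 0.236, as did different numbers of 1 set (0.11 to 0.204), while libraries of different sets correlated at -0.2 to -0.115; the pairing comes from the data, not from the labels.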

Additional observations from a re-analysis of the deposited data

Results flagged for a closer look

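In groups of 4 rats, a library far from the other 3 relative to the group's range was looked for in 112 described genes and 33 list sums; about 1 in 20 groups would be marked so by chance, and 18 of 290 were. The proximal tubule marker sum was 3098 CPM in day 2 control 1, against 206 to 278 CPM in the other controls. Among water-loaded rats, rat 3 was low for Mcm5 (15.5 CPM, others 37.7 to 41.3), Mcm6 (27.8 CPM, others 77.4 to 80.2), Hk1 (78.6 CPM, others 122.5 to 130.1), the cholesterol and fatty acid list (1361 CPM, others 1786 to 1878) and the heat shock list (3172 CPM, others 3742 to 3866). Rat 4 was high for Tuba1b (1042 CPM, others 513 to 563) and low for the Wnt list (1238 CPM, others 1509 to 1529), and rat 2 was low for Hes1 (7.58 CPM, others 17.2 to 19.4) and Pdhb (239 CPM, others 292 to 296) and high for Lrp2 (0.226 CPM, others 0 to 0.0154). Among controls, rat 4 was low for Mgll (33.0 CPM, others 88.3 to 105), Cdca3 (0.486 CPM, others 13.5 to 18.4) and the Notch list (919 CPM, others 1105 to 1131). Control 1 was low for Hes1 (26.3 CPM, others 41.3 to 43.1) and Ptgs1 (33.3 CPM, others 43.3 to 45.7), and control 3 was high for Ptprc (0.408 CPM, others 0) and for the injury and keratin list (9794 CPM, others 6789 to 6928).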

How the results depend on the processing

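The count of 0 genes called at day 2 held with other size factors, filters, a non-robust fit, a term for the set over 20 libraries, the day 2 libraries alone, log2(FPKM + 1) and without any 1 day 2 library (0 in each). It was 1 with the day 2 libraries alone and a term for the set, 2 with log2(FPKM + 0.1) (Uhrf1 and Tubb5), 19 with limma-voom and 77 with DESeq2; the cause was not tested. With the replicate block, which pairs rats by number, 0 genes were called (smallest adjusted p = 0.0806 over 20 libraries and 0.208 at day 2 alone), and no call changed. The count differing from day 1 was 0 to 1 without any 1 library (1 without day 2 control 3), 5 with limma-voom and 518 with DESeq2; that from day 4 was 0 without any 1 library and 154 with DESeq2. Whether the effect differed between libraries 1-2 and 3-4, a test added after seeing the data, gave 0 of 12739 genes (smallest adjusted p = 0.213, 892 at an unadjusted p under 0.05). The G1/S median of 1.37 was 1.82 within libraries 1-2, 1.02 within 3-4 and 1.66 without day 2 control 1; on the fitted scale, where it was 0.96, it was 1.05 with the day 2 libraries alone and a term for the set. The mitosis median of 2.90 lay between 2.63 and 3.31 on the same scale; the fitted median, 1.82 over 20 libraries, was 2.29 with the day 2 libraries alone and that term. Of 2561 alternative values of 112 described genes 30 changed sign, all in genes whose groups overlapped. Without 1 library these were Scnn1a (-0.0353 without day 2 water-loaded 4), Scnn1b (0.159 without day 2 control 4), Umod (0.0299 without day 2 control 3), Bub1 (0.113, 0.569 and 0.157 without day 2 control 1, control 2 and water-loaded 4), Cks1b (0.174, 0.0547 and 0.0383 without control 1, water-loaded 3 and water-loaded 4), Zwilch (-0.0754, -0.0114 and -1.51 without control 2, control 4 and water-loaded 2) and Krt19 (-0.26, -0.283 and -0.39 without control 3, control 4 and water-loaded 1, and -0.0385 without water-loaded 3). Bub1, at -0.18 in the 20-library fit, was 0.817 with a term for the set, 0.836 with the day 2 libraries alone and that term, 0.686 with the replicate block and 0.70 with it at day 2 alone, 0.774 with limma-voom, 0.271 with log2(FPKM + 1) and 0.64 with log2(FPKM + 0.1). Zwilch was -1.47 with the set term, -1.43 at day 2 alone with it, -1.75 with the replicate block, -1.71 with it at day 2 alone and -0.678 with limma-voom, and Krt19 was -0.0525 and -0.0329 with the replicate block; the cause was not tested. Depth limits genes near the floor, where fitted differences depend on the prior count.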

Other observations

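Genes of mitochondrial energy metabolism, a group added after values were seen, lay slightly higher under water load. Of 18 TCA cycle genes with a read 16 were higher, 14 in both sets, with a median of 0.45, and 2 lay higher without overlap. Over all genes with a read 25.8% were higher in both sets and 1.96% higher without overlap. Sdha, a subunit of succinate dehydrogenase, stood at 438, 717, 350 and 747 CPM in controls and at 791, 939, 1059 and 860 CPM in water-loaded rats, and Pdhb, of pyruvate dehydrogenase, at 146 to 237 CPM and 239 to 296 CPM. Of 70 respiratory chain genes with a mean of at least 10 CPM, 61 were higher, 50 in both sets, with a median of 0.41. Of all genes at that level 27.3% were higher in both sets. Only 1 of the 70 lay higher and 1 lower without overlap, against 1.96% and 1.57% of all genes with a read. Mitochondrial fatty acid oxidation was more mixed: of 18 genes with a read 11 were higher and 7 lower. In both sets 9 were higher and 4 lower, the median was 0.41, and 2 lay higher without overlap. Got2, mitochondrial aspartate aminotransferase, stood at 390, 499, 587 and 381 CPM against 777, 603, 624 and 1392 CPM.

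Reads on replication-dependent histone genes did not follow those on the replication genes. How fully the amplified cDNA holds histone transcripts was not tested. Of 40 histone genes of the Hist1h to Hist3h groups with a read 29 were lower, with a median of -0.44, and all 3 with a mean of at least 10 CPM were lower in both sets. Hist1h4b stood at 103, 92.0, 514 and 321 CPM against 37.3, 44.0, 117 and 122.9 CPM. Its groups overlapped, and libraries 3-4 were higher than 1-2 in both treatments. A pair of secreted factors, picked after their values were seen, did not overlap: Gdf15 stood at 25.1, 113, 202 and 27.9 CPM against 5.83, 17.8, 14.4 and 23.8 CPM, and Stc1, stanniocalcin-1, at 595, 1343, 821 and 675 CPM against 366, 288, 580 and 166 CPM.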
